A study of Mus musculus and Homo sapiens with 30 samples.

Results

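The comparison described here is that of E0771 cells kept in medium with the secretome of obese inguinal adipocytes against E0771 cells kept in control medium. It rests on 6 of the 30 libraries of the study, 3 of each kind, taken by the cell line and the treatment in the sample labels and described across all 13813 genes with enough counts to test. E0771 is a mouse mammary cancer line. The study measured poly(A) RNA in E0771, in the mouse mammary gland line NMuMG and in the human breast cancer line SkBr3, each in control medium and with lean or obese adipocyte secretome. The E0771 cells were plated below confluence in DMEM with 10% FBS, grown for 36 h and then treated for 16 h. The obese group received a mixture of 50% secretome and 50% standard growth medium, and the control group received standard growth medium alone. The effect of the secretome and that of replacing part of the medium cannot be told apart here. The labels do not say from which species, animals or diet the adipocytes came. Nor do they say that the replicates were separate cultures, so the p-values measure the spread between these libraries, which may be technical.

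Adipocytes release fatty acids, peptides and metabolites that neighbouring tumour cells can take up. Lysosomes break down material taken up from outside and from within the cell with acid hydrolases, and the vacuolar ATPase, a proton pump of a membrane part (V0) and a catalytic part (V1), keeps them acidic. Many lysosomal genes carry near their start the palindrome CACGTG within a longer motif, to which transcription factors of the MiT/TFE family (Tfeb, Tfe3 and Mitf) are known to bind. Cells that take up fatty acids commonly turn on genes of lipid storage and mitochondrial fatty acid oxidation through nuclear receptors of the PPAR family, and sterol synthesis is set by the factor encoded by Srebf2.

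Total counts were between 22929035 and 27401791 in the control libraries and between 25430230 and 28210331 in the obese libraries, and TMM scaling factors were between 0.9953 and 1.001. The median SD of log2 CPM (counts scaled to the library's TMM-adjusted total) within a group was 0.0789 in the control and 0.0736 in the obese libraries. The epithelial markers were mostly absent: Krt8, a keratin of simple epithelia, lay between 229 and 258 CPM, but Krt18 was 0 in all 6 libraries, Epcam did not exceed 0.131 and Cdh1 0.224 CPM, and 16 of 18 markers stayed under 1 CPM in every one of the 6 libraries. In bulk RNA, fewer cells of a type and less RNA per cell cannot be told apart. Of 10 fibroblast markers, Col1a1 (416 to 723 CPM) and Pdgfra (113 to 121 CPM) were among the abundant ones. Another 4 stayed under 1 CPM in every one of the 6 libraries: Col1a2 (at most 0.401 CPM), Dcn, Lum and Fbln1. Summed fibroblast markers were 988 to 1090 CPM in control and 749 to 993 CPM in obese libraries. Defining adipocyte genes were at or near 0 (Lep, Pparg, Ucp1 and Car3 at 0, Adipoq up to 0.118 CPM), and the summed adipocyte markers, carried by the lipases Pnpla2 and Lipe, were 49.9 to 52.3 CPM in control and 54.0 to 58.7 CPM in obese libraries. Lymphocyte markers summed to at most 0.432 CPM and macrophage markers to at most 6.82 CPM.

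The obese secretome moved few genes, and by little. At an adjusted p under 0.05 (edgeR's quasi-likelihood test, Benjamini-Hochberg over all genes tested), 360 of 13813 genes were called, which is 2.61%. Of these, 167 (1.21%) were higher and 193 (1.4%) were lower with the obese secretome. Before adjustment, 2130 of the 13813 genes had an edgeR p under 0.05. The typical gene differed by 0.0805 on the log2 scale in either direction (median of absolute values), close to the median standard error of 0.0725, and the typical called gene by 0.266. Among the called genes 161 changed by less than 0.25 on the log2 scale and 10 by at least 1. The lean secretome, tested against the same control libraries, moved the typical gene by 0.267, with 56.3% of genes called. The number of genes called depended on single libraries. With control replicate 1 left out 79 genes were called, of which 74 were among the 360, and with control replicate 2 left out 110 (105 shared). With obese replicate 1 left out 192 were called (171 shared), and with obese replicate 3 left out 89 (85 shared). The count was 498 (307 shared) when control replicate 3 was dropped, 376 (261 shared) when obese replicate 2 was dropped and 601 (340 shared) when lean replicate 3 was dropped. The lean libraries enter through the filter on low counts and the scaling as well as through the estimate of the spread. A fit of only the 6 control and obese libraries called 407 genes (304 shared). There were 57 genes (37 higher, 20 lower) that stayed called whichever of the 9 libraries was left out.

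**Figure D1:**
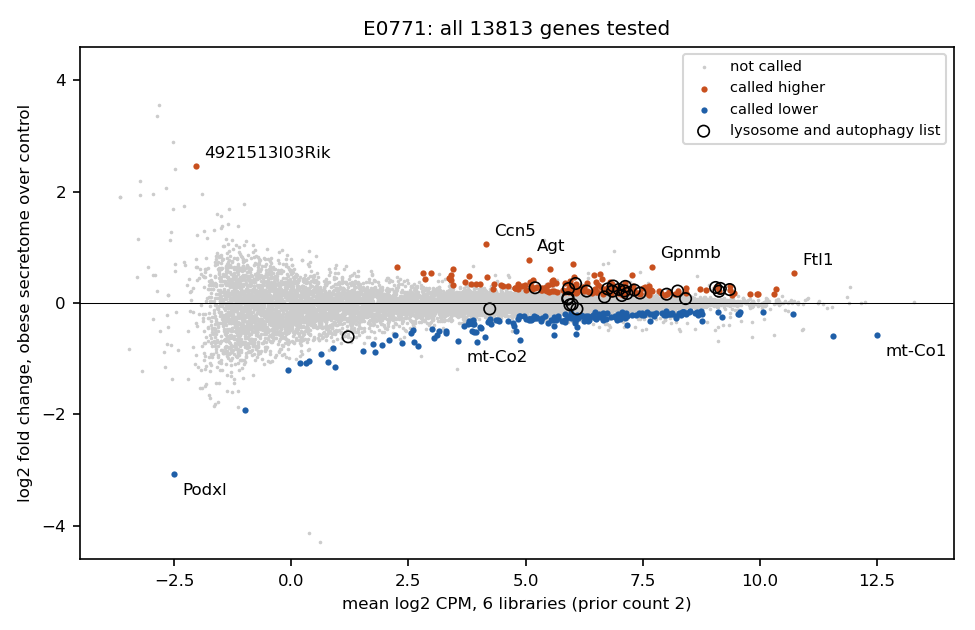
Log2 fold change of obese secretome over control (y axis) against the mean log2 CPM of the 6 libraries (x axis) for the 13813 genes tested; orange points are the 167 genes called higher, blue points the 193 called lower, grey points the others, and open circles mark the lysosome and autophagy list. Most called genes lie close to 0, and 17 of the 29 circled genes are among those called higher.

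The clearest group was that of the lysosome. The gene lists used here were chosen with earlier results of these data known, this one included, so their counts are descriptions. Of 29 genes in a list of lysosome and autophagy genes, all of which were tested, 17 rose and 0 fell, against 1.21% of all genes called higher. The list's median log2 fold change was 0.21, beside a median of all genes within 0.001 of 0, and 24 of its members did not overlap between the groups, against 21.2% of all genes. The size of the change was small for each gene, the called members lying between 0.16 (Gaa) and 0.35 (Gla). In NMuMG the same list had a median of 0.00, with 2 members called higher and 1 lower, against 5.01% of all genes called there. The difference between the lines passed the interaction test for 6 members higher in E0771 and 1 lower, against 1.69% of all genes.

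Lamp1, a major glycoprotein of the lysosomal membrane, was at 461, 481 and 501 CPM in the control and 561, 578 and 617 CPM in the obese libraries. All 3 obese libraries lay above all 3 controls, and Lamp1 rose by 0.28 ± 0.04 (SE) on the log2 scale (edgeR, adjusted p = 0.000321). Its relative Lamp2 was at 105, 110 and 106 CPM in control and 119, 122 and 132 CPM in obese libraries, again without overlap (log2 fold change 0.21, edgeR adjusted p = 0.0112).

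Among the proteases, Ctsd, which encodes the aspartic protease cathepsin D, was at 556, 606 and 634 CPM in control and 707, 712 and 713 CPM in obese libraries. The obese libraries were tighter than the controls and all above them, with a log2 fold change of 0.24 ± 0.04 (edgeR, adjusted p = 0.00146). Ctsb, the cysteine protease cathepsin B, was at 499.8, 510.5 and 540.5 CPM in control and 607, 588 and 608 CPM in obese libraries (log2 fold change 0.21, edgeR adjusted p = 0.00218). Ctsl, Ctsz and Ctsa also rose, by 0.22, 0.18 and 0.22 on the log2 scale. Ctsl was also called higher in NMuMG (log2 fold change 0.34, edgeR adjusted p = 2.42e-08).

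The enzymes that degrade glycans and glycolipids moved the same way. Gla, the alpha-galactosidase missing in Fabry disease, was at 51.0, 61.2 and 65.4 CPM in control and 73.5, 74.6 and 78.7 CPM in obese libraries (log2 fold change 0.35 ± 0.07, edgeR adjusted p = 0.00771). Hexa, the alpha subunit of beta-hexosaminidase, rose by 0.25 and Gaa, the acid alpha-glucosidase, by 0.16 on the log2 scale. The autophagosome gene Map1lc3b, which encodes LC3B, was at 141, 144 and 155 CPM in control and 169, 171 and 178 CPM in obese libraries, a log2 fold change of 0.23 (edgeR, adjusted p = 0.00957). For Sqstm1, an autophagy receptor that is also an NRF2 target, the log2 fold change was 0.26 with a standard error of 0.123 and did not pass (edgeR, adjusted p = 0.387).

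The genes of the MiT/TFE factors themselves were not called. Tfeb was at 18.8, 18.6 and 20.8 CPM in control and 17.15, 18.2 and 18.8 CPM in obese libraries, with overlap (log2 fold change -0.11, edgeR adjusted p = 0.58), and Tfe3 and Mitf had log2 fold changes of 0.07 and -0.16. The early autophagy genes Ulk1 and Uvrag, the calcium channel gene Mcoln1 and the cholesterol exporters Npc1 and Npc2 did not pass either. Atg9b had the lowest value of the list (log2 fold change -0.61), was not called, and is weakly expressed.

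**Figure D2:**
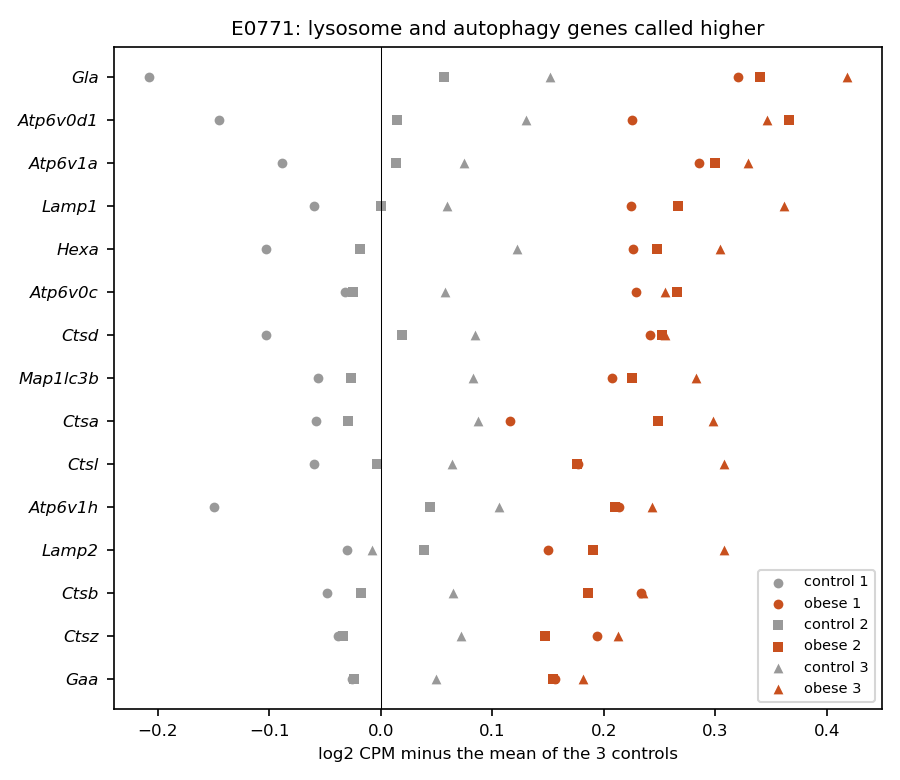
Log2 CPM minus the mean of the 3 control libraries (x axis) for 15 of the 17 lysosome and autophagy genes called higher in E0771 (y axis, ordered by fold change); grey symbols are control and orange symbols obese libraries, with the shape giving the replicate number. Every orange symbol lies to the right of every grey symbol of its gene, and control replicate 1 is the lowest control for all 15 genes drawn.

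The control libraries were not alike for these genes. Control replicate 1 was the lowest control for 17 of the 17 called members and control replicate 3 the highest for 16, while obese replicate 3 was the highest obese library for 15. Without control replicate 1 the list had 7 members called and a median of 0.18, without control replicate 2 it had 9, and without obese replicate 3 it had 6 and a median of 0.18. Under the other alternatives that kept all control and obese libraries, 15 to 18 members were called. Lamp1, Atp6v1a, Atp6v0c, Atp6v0d1, Ctsd and Ctsb stayed called under each of the 15 alternatives run. The share of counts from the 13 mitochondrially encoded mRNAs differed between the same libraries in the other direction. It was 2.006, 1.876 and 1.555% in the control and 1.192, 1.155 and 1.366% in the obese libraries. A fit without mitochondrially encoded genes called 374 genes, 336 of them among the 360, and gave the lysosome list a median of 0.22. Beyond this fit, the part of the share in the result was not tested.

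Promoter sequence could be set beside these changes, since 13 of the 17 called members had a window from 250 bases before to 50 bases after the start in RefSeq (GRCm38.p6). The 3 windows printed here are from called members, a glycosidase, a pump subunit and a protease, that hold the longer palindrome TCACGTGA. Each is given 5′ to 3′ in the direction of transcription from 250 bases before the start to 30 after it, with CACGTG, or TCACGTGA where all of it is present, in capitals.

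Gla, chrX:134600976-134601255, minus strand: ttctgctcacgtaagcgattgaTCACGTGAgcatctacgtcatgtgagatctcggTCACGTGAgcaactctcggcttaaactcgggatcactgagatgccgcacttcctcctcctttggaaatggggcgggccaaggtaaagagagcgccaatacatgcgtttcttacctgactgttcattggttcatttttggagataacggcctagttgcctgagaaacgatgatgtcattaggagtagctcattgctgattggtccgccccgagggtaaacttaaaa
Atp6v1a, chr16:44139230-44139509, minus strand: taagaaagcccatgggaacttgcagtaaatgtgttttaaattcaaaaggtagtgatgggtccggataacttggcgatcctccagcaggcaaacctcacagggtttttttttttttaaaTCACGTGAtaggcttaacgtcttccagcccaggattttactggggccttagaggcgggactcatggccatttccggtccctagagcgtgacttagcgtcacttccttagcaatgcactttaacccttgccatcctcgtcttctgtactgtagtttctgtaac
Ctsd, chr7:142387798-142388077, minus strand: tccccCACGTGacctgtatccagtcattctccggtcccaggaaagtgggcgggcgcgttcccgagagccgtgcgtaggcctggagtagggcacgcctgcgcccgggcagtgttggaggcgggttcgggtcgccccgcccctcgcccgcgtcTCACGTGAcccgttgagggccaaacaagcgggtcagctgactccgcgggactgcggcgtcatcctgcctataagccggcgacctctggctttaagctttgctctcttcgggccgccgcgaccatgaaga

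CACGTG, of which TCACGTGA is a longer form, was found in the windows of 8 of the 13 called members (61.5%) and of 2 of 11 members that were not called (18.2%). It was found in 8.09% of all 27025 genes with a window, in 11.9% of the 9467 tested genes with one, in 26.8% of all genes called higher and in 6.67% of those called lower. TCACGTGA was found in 5 of the 13 called members (38.5%) and in 1 of 11 members that were not called (9.09%). It was found in 1.12% of all genes with a window and in 2.26% of the tested genes with one. Among the genes called higher the share was 8.66%, and none (0 of 135) of those called lower held it. Both motifs are palindromes, so 1 search covers both strands. Counting the first C of CACGTG from the start, the long form occurred in Gla at -227 and -194, in Atp6v1a at -131, in Ctsd at -98 (with a short form at -245) and in Atp6v0d1 at -3. Lamp1 had 4 copies of the short form between -61 and -15. Windows of expressed genes hold the motif more often than all windows, and a match describes these letters only, not binding.

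The proton pump was counted from a list of its subunits made after the values were seen and so is a description only. Of 20 tested genes 10 rose and 0 fell, against 1.21% of all genes called higher, with a median log2 fold change of 0.23. Some called members, Atp6v1a among them, are also in the lysosome and autophagy list and were counted there. Atp6v0b, a proteolipid of the membrane ring, was at 96.1, 93.9 and 102 CPM in control and 127, 124 and 131 CPM in obese libraries. The groups were far apart against their spread, and the log2 fold change was 0.38 ± 0.04 (edgeR, adjusted p = 2.41e-05). Atp6v1a, the catalytic subunit, was at 118, 127 and 132 CPM in control and 153, 155 and 158 CPM in obese libraries (log2 fold change 0.30 ± 0.04, edgeR adjusted p = 0.000363). Atp6v0d1, which joins the parts of the pump, was at 94.6, 106 and 114.5 CPM in control and 122, 135 and 133 CPM in obese libraries, a log2 fold change of 0.31 (edgeR, adjusted p = 0.0042). The V1 subunit genes Atp6v1b2, Atp6v1c1, Atp6v1d, Atp6v1e1 and Atp6v1h and the accessory gene Atp6ap2 rose by 0.21 to 0.29 on the log2 scale. Atp6v1e1 was called under 8 of 15 alternatives. The difference between E0771 and NMuMG passed the interaction test for 9 of the 20 genes, all higher in E0771, against 1.69% of all genes, and in NMuMG, where 5.01% of all genes were called, 0 of 20 were called higher and 1 was called lower.

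Of 42 further hydrolase and cofactor genes, from a list also made afterwards, 15 rose and 0 fell, against 1.21% of all genes called higher. The median was 0.11. Grn, which encodes progranulin, was at 578.5, 586 and 614 CPM in control and 674, 758 and 763 CPM in obese libraries (log2 fold change 0.30 ± 0.04, edgeR adjusted p = 0.000326). Psap, the precursor of the saposins that help hydrolases reach lipids, was among the most abundant, with a mean of 1181 ± 41.1 CPM (SD, n = 3) in control and 1406 ± 55.3 CPM in obese libraries (log2 fold change 0.25, edgeR adjusted p = 0.000549). Tpp1, Ifi30, Lgmn, Neu1 and Asah1 were also called higher, Asah1 under 8 of 15 alternatives. Of 22 further membrane proteins, likewise chosen afterwards, 7 rose (among them Cd63, Mfsd1, Ostm1 and Gpnmb), against 1.21% of all genes. The ABC transporter genes Abca2 and Abcd4 were the 2 that fell, by 0.18 and 0.27 on the log2 scale, against 1.4% of all genes. Abca2 was called under 6 of 15 alternatives. Gpnmb, a glycoprotein of lysosomes and melanosomes, was at 141, 172 and 181 CPM in control and 229, 266 and 283 CPM in obese libraries, a log2 fold change of 0.65 (edgeR, adjusted p = 0.0341) that was not called under 7 of 15 alternatives. Over the lysosome list and these 3 additions together, with shared genes counted once, 109 genes were tested, 45 rose and 2 fell. The 45 made up 26.9% of all genes called higher.

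Rragd, a Rag GTPase that brings mTORC1 to the lysosome, was at 33.4, 39.1 and 39.2 CPM in control and 53.3, 56.8 and 59.9 CPM in obese libraries. The groups did not overlap, the log2 fold change was 0.60 ± 0.07 (edgeR, adjusted p = 0.000118), and the call held under all 15 alternatives. Fnip1, a partner of folliculin, rose by 0.18, and its partner Flcn had a log2 fold change of 0.18 that did not pass (edgeR, adjusted p = 0.0944). Both were among 12 tested genes of a Rag and folliculin list made after the values were seen. Of the 12, 2 rose and 0 fell, against 1.21% of all genes called higher.

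Genes of fatty acid use formed a smaller group. A list of PPAR targets and fatty acid oxidation genes had 26 members, of which 19 were tested. Its members Ppara, Pparg and Pdk4 had no reads in any E0771 library. Of the 19 tested, 5 rose and 0 fell, against 1.21% of all genes called higher. The sign was positive in 17 and the median log2 fold change was 0.29. Acadl, the long-chain acyl-CoA dehydrogenase, was at 67.1, 68.9 and 72.5 CPM in control and 89.95, 87.9 and 92.0 CPM in obese libraries (log2 fold change 0.37 ± 0.05, edgeR adjusted p = 0.000326). Plin2, which coats lipid droplets, was at 51.2, 52.4 and 62.6 CPM in control and 77.0, 70.0 and 82.1 CPM in obese libraries (log2 fold change 0.46 ± 0.07, edgeR adjusted p = 0.00257). Neither gene overlapped between the groups. Cpt1a and Slc25a20, which carry acyl groups into mitochondria, rose by 0.50 and 0.49, and Acaa2, the last enzyme of a beta-oxidation round, rose by 0.36. The PPAR target Angptl4, at 16.7, 16.5 and 18.1 CPM in control and 28.4, 17.3 and 26.9 CPM in obese libraries, did not pass (edgeR, adjusted p = 0.243), and obese replicate 2 lay among the controls. Without control replicate 1 the list had 2 members called, and without control replicate 2 it had 3 and a median of 0.20. Without obese replicate 3 it had 4 members called and a median of 0.19.

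Sterol synthesis genes leaned the other way. Of 24 tested, 4 fell and 0 rose, against 1.4% of all genes called lower. The sign was negative in 23 and the median was -0.16. Srebf2, which encodes the sterol-sensing transcription factor, was at 262, 273 and 263 CPM in control and 232, 247 and 209 CPM in obese libraries (log2 fold change -0.22 ± 0.05, edgeR adjusted p = 0.0106). Dhcr7, the last enzyme of the pathway, was at 35.4, 38.2 and 40.9 CPM in control and 31.4, 31.9 and 29.1 CPM in obese libraries (log2 fold change -0.31, edgeR adjusted p = 0.00759). Fdps and Lss were also called lower, but under 8 and 5 of the 15 alternatives. Obese replicate 3 was the lowest for the list as a whole, with a median of -0.26 against the control mean where the other obese libraries had -0.11 and -0.09, and without it the median was -0.09 and none of Srebf2, Dhcr7, Fdps and Lss was called. Of 14 fatty acid synthesis genes, Acaca and Srebf1 fell by 0.22 and 0.24 and Me1 rose by 0.29. Srebf1 and Me1 were called under 6 and 8 of 15 alternatives.

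NRF2 targets, which encode antioxidant and iron-storing proteins, had a positive sign in 28 of 29 genes and a median log2 fold change of 0.28. Of the 29 tested, 4 were called (Ftl1, Gsta4, Me1 and Taldo1), all higher, against 1.21% of all genes called higher. Ftl1, the ferritin light chain, was at 1317, 1416 and 1474 CPM in control and 2280, 1831 and 2005 CPM in obese libraries (log2 fold change 0.53 ± 0.08, edgeR adjusted p = 0.0116). Its call held under 13 of 15 alternatives and was lost in the fit of only the 6 control and obese libraries. Hmox1, the haem-degrading enzyme, was at 82.4, 86.2 and 93.6 CPM in control and 252, 112 and 139 CPM in obese libraries, so the obese libraries were all higher but 1 of them stood apart, and the log2 fold change of 0.93 ± 0.37 did not pass (edgeR, adjusted p = 0.304). The quinone reductase gene Nqo1 had the same pattern, at 30.5, 29.1 and 29.6 CPM in control and 109.6, 38.3 and 47.5 CPM in obese libraries. The median of the list against the control mean was 0.50 in obese replicate 1, 0.12 in obese replicate 2 and 0.22 in obese replicate 3. Without obese replicate 1 the median fold change was 0.17 and 9 members were called. Without control replicate 1, 0 were called. With all libraries 20 of the 29 genes had an unadjusted p under 0.05, against 2130 of all 13813 genes, and DESeq2 called 8.

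The title of the series concerns ferroptosis, in which cells die through iron-dependent oxidation of their membrane lipids. Of 12 core ferroptosis genes, edgeR called 0 between obese secretome and control, and DESeq2 called 1, higher. An unadjusted p under 0.05 was found for 4 of the 12, against 2130 of all 13813 genes. Gpx4, which reduces lipid peroxides, was at 151, 165 and 172 CPM in control and 175, 178 and 178 CPM in obese libraries (log2 fold change 0.12, edgeR adjusted p = 0.169). Fth1, the ferritin heavy chain, was at 3434, 3483 and 3648 CPM in control and 4964, 3915 and 4094 CPM in obese libraries (log2 fold change 0.29, edgeR adjusted p = 0.158). The groups did not overlap for either gene. Slc7a11, which imports cystine, had a log2 fold change of 0.06 ± 0.13, and Acsl4, which builds peroxidation-prone lipids, one of -0.11 ± 0.07, both with overlapping groups. The desaturase gene Scd1 had a log2 fold change of -0.34 without overlap that did not pass (edgeR, adjusted p = 0.179). The transferrin receptor gene Tfrc (0.07), the ferritin receptor gene Ncoa4 (0.00), Aifm2 (0.04), Lpcat3 (-0.09), Chac1 (-0.04) and Ptgs2 (0.61) overlapped between the groups and did not pass.

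**Figure D3:**
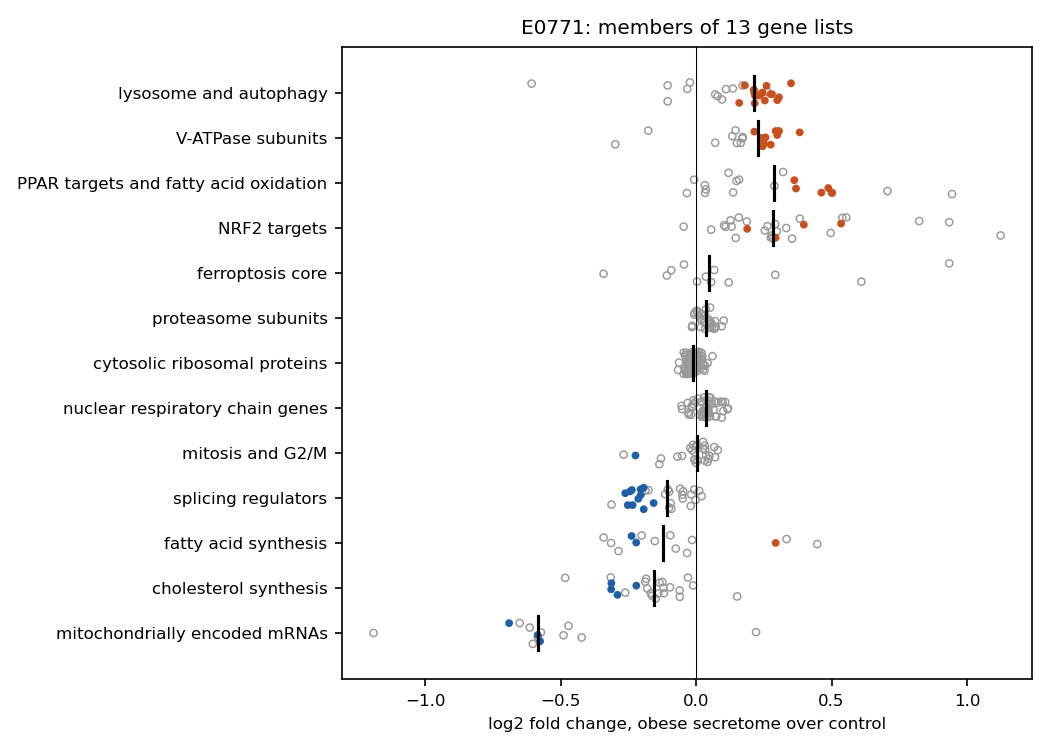
Log2 fold change of obese secretome over control (x axis) for the tested members of 13 gene lists (y axis); orange and blue points are called higher and lower, open points are not called, the vertical bar is the list's median, and the vertical position of a point within its list has no meaning. The lysosome and proton pump lists sit near 0.2, the ribosomal proteins near 0, and the mitochondrially encoded mRNAs near -0.6.

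Of 13 mRNAs encoded in the mitochondrial genome, mt-Co2, mt-Cytb and mt-Co1 fell, against 1.4% of all genes called lower. Another 9 had a negative sign without passing, and mt-Nd3 had a log2 fold change of 0.22 with overlapping groups. In all, 12 did not overlap between the groups, against 21.2% of all genes, and the median log2 fold change was -0.58. The cytochrome b mRNA mt-Cytb was at 4159, 3761 and 3229 CPM in control and 2444, 2324 and 2691 CPM in obese libraries (log2 fold change -0.58 ± 0.10, edgeR adjusted p = 0.0384). The cytochrome oxidase mRNA mt-Co1 was at 7823, 7348 and 6094 CPM in control and 4547, 4525 and 5244 CPM in obese libraries (log2 fold change -0.58, edgeR adjusted p = 0.048). Both calls were fragile, mt-Co1 being called under 3 and mt-Cytb under 5 of 14 alternatives, whereas mt-Co2 was called under all 14. The value of mt-Co2 rests on far fewer reads than those of mt-Cytb and mt-Co1. It was at 13.2 to 15.8 CPM in control and 7.90 to 10.85 CPM in obese libraries. Near-identical nuclear copies exist, so how reads were shared between them is uncertain. Copies such as Gm13340 (37.1 ± 2.89 CPM in control and 23.4 ± 1.42 CPM in obese libraries, SD, n = 3) and Gm10925 (21.7 ± 1.75 and 14.3 ± 2.44 CPM) were called lower too. The 53 nuclear genes of the respiratory chain had 0 called by edgeR or DESeq2 and a median of 0.04. An unadjusted p under 0.05 was found for 5 of the 53, against 2130 of all 13813 genes. The difference between E0771 and NMuMG passed the interaction test for 1 of the 13 mRNAs, mt-Co2.

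The largest changes among genes expressed above a mean log2 CPM of 2 included genes of secreted and cell-surface proteins. Ccn5, a matricellular protein, was at 10.6, 11.6 and 14.8 CPM in control and 26.7, 23.7 and 26.2 CPM in obese libraries, the only called gene in this range with a change of at least 1 on the log2 scale (log2 fold change 1.06 ± 0.09, edgeR adjusted p = 4.385e-07). In NMuMG it was scarce, at 2.36, 3.22 and 2.50 CPM in control and 2.09, 1.65 and 1.775 CPM in obese libraries, with a log2 fold change of -0.53 that did not pass (edgeR, adjusted p = 0.1175). Agt, the angiotensin precursor, was at 20.9, 25.6 and 30.9 CPM in control and 39.3, 44.8 and 48.2 CPM in obese libraries (log2 fold change 0.78 ± 0.13, edgeR adjusted p = 0.0166). It was called under 11 of 15 alternatives, but not in the fit of only the 6 control and obese libraries. The granzyme inhibitor gene Serpinb9 and its relative Serpinb9b rose by 0.51 and 0.70 on the log2 scale, Serpinb9b from 46.9, 52.9 and 50.4 CPM to 89.5, 74.8 and 80.5 CPM. Of 8 tested serpin and renin-angiotensin genes these 3 rose and 0 fell, against 1.21% of all genes called higher. The surface protein gene Ly6a, known as Sca-1, was at 8.69, 8.575 and 9.07 CPM in control and 15.7, 11.4 and 13.3 CPM in obese libraries (log2 fold change 0.61, edgeR adjusted p = 0.0042). Pgbd5, a gene derived from a transposase, rose by 0.51 with a call that held under all 15 alternatives. The other increases named by the same rule were Tmod1, Fam171b, Gdpd1 and Uap1l1 (called under 12 of 15), between 0.50 and 0.64.

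The decreases were led by Eps8l1, at 7.74, 6.34 and 5.63 CPM in control and 2.83, 5.23 and 3.935 CPM in obese libraries (log2 fold change -0.73 ± 0.17, edgeR adjusted p = 0.0229). Obese replicate 2 lay just under the lowest control, and the call was lost under 5 of 15 alternatives. Col6a3, a chain of collagen VI, was at 87.1, 87.5 and 70.2 CPM in control and 52.8, 62.7 and 52.0 CPM in obese libraries (log2 fold change -0.56 ± 0.09, edgeR adjusted p = 0.00907). Its call held under 14 of 15 alternatives and was lost in the fit of only the 6 control and obese libraries. Of the 6 fibroblast markers tested, edgeR called 0, their median log2 fold change was -0.07, and 2 had an unadjusted p under 0.05. Their sums, given above, overlapped between the groups, and among the abundant members Col1a1 was lower in all 3 obese libraries while Pdgfra, Pdgfrb and Col3a1 overlapped. Their part in the result was not tested. The semaphorin receptor gene Plxna3 was at 33.3, 30.8 and 28.2 CPM in control and 22.4, 24.7 and 22.4 CPM in obese libraries (log2 fold change -0.42, edgeR adjusted p = 0.00257) and was called under all 15 alternatives. Tenm4, a large teneurin, fell by 0.58 (called under 8 of 15 alternatives), the mitochondrial carrier gene Slc25a27 by 0.53 and Prune2 by 0.52 (called under 11 of 15). Dpm1 fell by 0.50, the corepressor gene Tle2 by 0.44 (called under 11 of 15) and Ankle1 by 0.41 on the log2 scale. The mitochondrial transfer RNA mt-Tl1 and the microRNA gene Mir5125, short features whose reads may come from overlapping or neighbouring transcripts, fell by 0.66 and 0.46. The complement gene C3 was at 89.3, 86.9 and 93.9 CPM in control and 68.0, 79.6 and 69.4 CPM in obese libraries (log2 fold change -0.32, edgeR adjusted p = 0.00304). C3 and Lcn2 were the 2 called among 22 NF-kB targets and chemokines, both lower. Lcn2, which encodes an iron carrier, was at 2.37, 2.535 and 3.315 CPM in control and 1.45, 0.944 and 1.31 CPM in obese libraries, and the gelatinase gene Mmp9, the 1 called of 14 matrix proteases and inhibitors, at 2.34, 1.19 and 1.66 CPM in control and 0.746, 0.983 and 0.744 CPM in obese libraries. Lcn2 and Mmp9 were called under 10 and 8 of 14 alternatives. All called genes other than Ccn5 with a change of at least 1, these 2 included, had a mean log2 CPM under 1. Of 19 YAP and SRF targets, Amotl2, Flna and Tead1 fell and Actg1 rose. Of 30 DNA replication genes the polymerase genes Pole and Pold1 fell by 0.22 and 0.14. Tead1 and Pold1 were called under 8 and 7 of 15 alternatives. Over all genes tested, 1.21% were called higher and 1.4% lower.

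Splicing regulators were among the genes called lower. In a list of 30 drawn up after the values were seen, 11 fell and 0 rose, against 1.4% of all genes called lower. The sign was negative in 28 and the median was -0.11. Nktr, a cyclophilin of the spliceosome, was at 166, 152 and 139 CPM in control and 126, 132 and 125 CPM in obese libraries (log2 fold change -0.26 ± 0.05, edgeR adjusted p = 0.0054). Ccnl2, Luc7l2, Snrnp200, Clk1, Clk4 and Son were also called, and the serine-arginine genes Srsf1, Srsf2 and Srsf3 had log2 fold changes between -0.02 and 0.02. Without control replicate 1, the highest library for this list, or without obese replicate 3, 0 members were called.

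Genes called lower had a longer exonic length, which is the union of all exons annotated for a gene and not the length of a transcript. The median exonic length in GENCODE M21 was 7614 bases for genes called lower, 3390 bases for genes called higher and 3943 bases for all genes tested, of which 98.1% had a length. When genes were split into 5 groups by length, 105 of the 2710 longest (7029 to 123179 bases) were called lower and 18 higher, while in the other 4 groups 17 to 29 were called lower and 20 to 53 higher. The shift per gene was slight, the median log2 fold change of the longest group being -0.03. Measured against the control mean, the median gene of that group was at 0.02, 0.01 and -0.03 in the control and -0.03, -0.02 and -0.03 in the obese libraries, so that control replicate 3 lay with the obese libraries. Length was not a term of the fit, and its part in the called decreases was not tested.

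**Figure D4:**
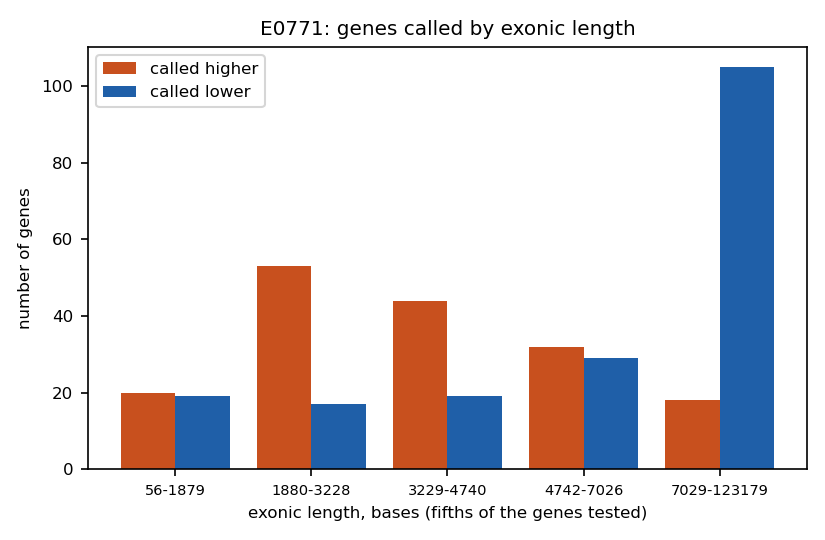
Number of genes called higher (orange) and lower (blue) with the obese secretome, in 5 groups of the tested genes by exonic length in bases (x axis), against the number of genes (y axis). The longest group holds 105 of the genes called lower and 18 of those called higher.

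Many lists had few or no members called. Of all 13813 genes tested, 2.61% were called and 2130 had an unadjusted p under 0.05. Among 78 cytosolic ribosomal proteins edgeR and DESeq2 called 0, with 0 at an unadjusted p under 0.05 and a median of -0.01, and all of these genes fell with the lean secretome. Among 31 proteasome subunits and 31 interferon response genes both tools called 0, with 2 of each at an unadjusted p under 0.05. Among 29 hypoxia and glycolysis genes Aldoa and Pgam1 rose, by 0.16 and 0.15 (Pgam1 called under 8 of 15 alternatives). Cdkn1a and Gdf15 rose among 20 p53 targets, Calr and Dnajb11 among 22 chaperone and unfolded protein response genes, and Slc39a10, a zinc importer, among 6 metallothionein and zinc genes. Dnajb11 was called under 7 of 15 alternatives. Among 17 circadian clock genes the repressor Bhlhe41 rose by 0.33 and Per3 fell by 0.30. Gdf15 was also the 1 called among 25 ATF4 and CHOP targets, Cenpf the 1 called, lower, among 28 mitosis genes, and Ccn5 the 1 called among 19 TGF-beta targets and mesenchymal genes. Of 24 immediate early and ERK feedback genes Dusp4 rose and Etv5 fell, called under 6 and 8 of 15 alternatives. Among 20 aminoacyl-tRNA synthetases and 14 heat shock chaperones both tools called 0, with 2 and 1 at an unadjusted p under 0.05. Of the marker lists of other cell types, between 1 and 6 genes each were tested and edgeR called 0.

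Values for the lean secretome can be set beside these, although both comparisons use the same 3 control libraries and so cannot be correlated as independent results. The lysosome and autophagy list had 18 members higher and 6 lower with the lean secretome, where 56.3% of all genes were called, with a median of 0.24. Lamp1 and Atp6v1a were at a mean of 632 and 176 CPM with the lean secretome, above the obese means of 585.5 and 155 CPM. Psap, Grn and Hexa went the other way: their log2 fold changes over control were 0.04, 0.06 and -0.05 with the lean and 0.25, 0.30 and 0.25 with the obese secretome, and in the direct test of lean against obese they were lower by 0.21, 0.24 and 0.31 (edgeR, adjusted p = 3.12e-05 for Psap, 2.92e-05 for Grn and 1.09e-05 for Hexa). Agt and Uap1l1 were also lower with the lean than with the obese secretome (log2 difference -0.57 and -0.47), and neither was called between lean secretome and control. Plin2 and Serpinb9b, by contrast, were higher with the lean than with the obese secretome by 1.02 and 0.71 on the log2 scale.

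The obese effect in E0771 was tested against that in NMuMG, whose medium also held insulin and added glucose and whose control and obese libraries were separate ones. The secretome thus replaced part of a different medium in each line. A different response to the secretome and a different change of medium cannot be told apart here. The interaction was called for 279 of 16529 genes (1.69%), and 752 of 15014 genes (5.01%) were called in NMuMG itself. Atp6v0d1 was at a log2 fold change of 0.31 in E0771 and -0.20 in NMuMG, a difference of 0.51 (edgeR, adjusted p = 0.000993). For Lamp1 the values were 0.28 and 0.00 (adjusted p = 0.00119), for Grn 0.30 and -0.03 (adjusted p = 0.000426) and for Acadl 0.37 and 0.05 (adjusted p = 0.00248), each by edgeR's interaction test. Slc25a20 and Cpt1a, of the carnitine shuttle, differed by 0.63 and 0.58. For Ctsd, Ctsb, Gla and Hexa the difference between the lines did not pass, so none was shown for them.

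**Figure D5:**
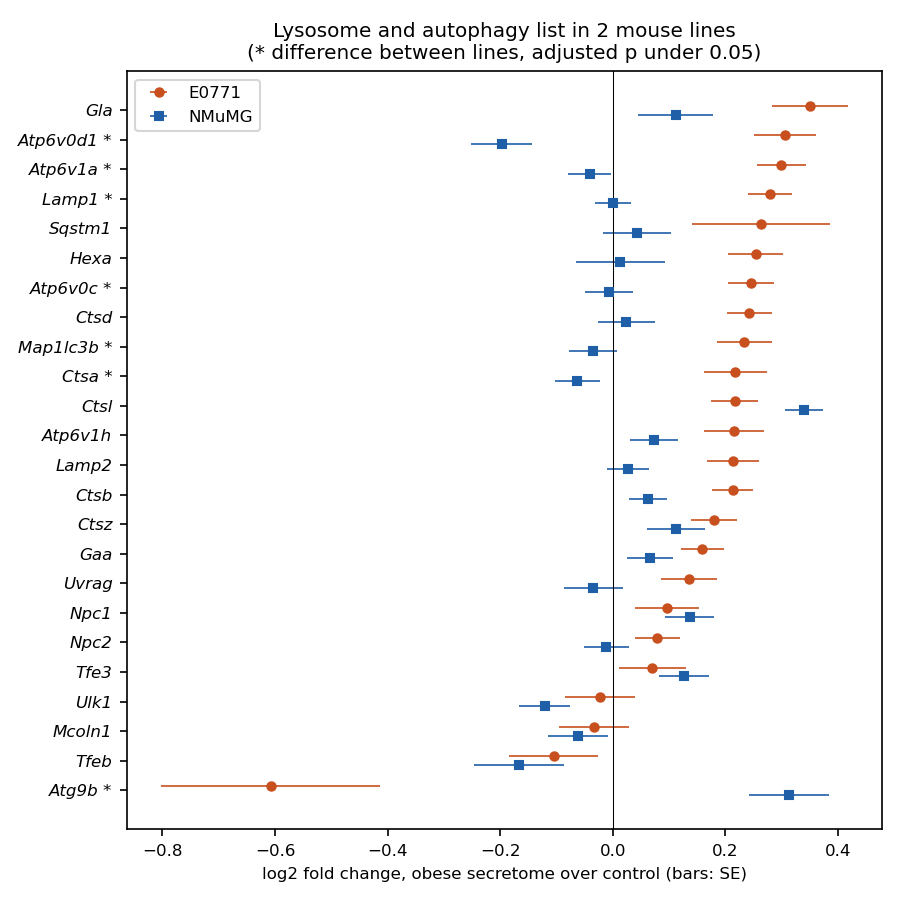
Log2 fold change of obese secretome over control (x axis, bars are SE) for 24 of the 29 lysosome and autophagy genes (y axis) in E0771 (orange circles) and NMuMG (blue squares), with a star at genes whose difference between the lines passed the interaction test. The 6 starred genes higher in E0771 have NMuMG values at or under 0, and the seventh, Atg9b, is lower in E0771.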

How the data were processed

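Poly(A) RNA from 30 samples was sequenced with a directional kit, per the labels' protocols. The authors deposited whole-number counts of reads per gene. Reads were handled with cutadapt 1.16, STAR 2.7.9a and featureCounts 1.6.3 on GRCm39, per the submitters' processing notes; the annotation release and strand setting are not given in the sources used here. Of 56980 gene IDs, 52073 were matched to GENCODE M21 (GRCm38) symbols, which held 99.68% of the mouse counts, and this annotation was used for names and exonic lengths only. Promoter windows are RefSeq's (GRCm38.p6), and 1 search covered each motif.

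Groups were taken from the labels. Counts were fitted with edgeR 4.0.16 (TMM, its default filter on low counts, robust quasi-likelihood F-test, R 4.3.3) over all 9 E0771 libraries, which share 1 estimate of the spread, and the obese groups were contrasted with control. The threshold was a Benjamini-Hochberg adjusted p of 0.05. The difference between E0771 and NMuMG was the interaction in 1 fit of both lines. List values per library used log2(CPM + 1), and other log2 CPM a prior count of 2. No 2 replicates agreed within sampling noise. Same-numbered control and obese libraries did not pair by the check of their deviations, so the fit has no block.

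Named genes had to be called, to have a mean log2 CPM no lower than 2, groups that did not overlap and a symbol other than a clone or model name; the 14 that rose most and the 14 that fell most were taken. To these came 12 ferroptosis genes and examples from 33 lists (922 entries, all matched); a few list members enter the counts but are not reported here by name. The members and lists were chosen with earlier results of these data known, and 5 further lists after the values were seen. Tried were 15 alternatives of the E0771 fit (DESeq2 1.42.0 among them) and 16 of the interaction. The scripts were tested on simulated counts.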

Additional observations from a re-analysis of the deposited data

Results flagged for a closer look

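For 57 genes the log2 fold change of obese secretome over control differed between E0771 and NMuMG by edgeR's interaction test. These genes are described here or stayed called in E0771 whichever library was left out. The growth media of the lines differed too, so the parts of secretome and medium in the difference cannot be told apart. Values in brackets are the log2 effect in E0771 minus that in NMuMG, each effect being that of 3 obese over 3 control libraries. The lean libraries of both lines were in the same fit and enter through the filter, the scaling and the estimate of the spread. Chosen because the difference passed, the values in brackets are descriptions of its size. Among subunits of the proton pump, all positive, they were Atp6v0d1 (0.51), Atp6v1a (0.35), Atp6v1e1 (0.35), Atp6v1b2 (0.34), Atp6v0b (0.33), Atp6v1c1 (0.30), Atp6v1d (0.30) and Atp6v0c (0.26). Among other lysosomal genes the values were Manba (0.36), Grn (0.34), Neu1 (0.34), Fuca2 (0.32), Lgmn (0.29), Ctsa (0.29), Lamp1 (0.29), Tpp1 (0.28), Psap (0.26), Scpep1 (0.25) and Cd63 (0.21). They were Flcn (0.29) and Map1lc3b (0.28) for folliculin and LC3B. Genes of fatty acid and redox metabolism had Slc25a20 (0.63), Cpt1a (0.58), Me1 (0.42), Acaa2 (0.35), Eci2 (0.35), Acadl (0.33) and Aldh9a1 (0.30).

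Secreted or surface proteins and serpins had Ccn5 (1.59), Serpinb9b (0.97), Ly6a (0.94), Serpinb9 (0.90) and Gdf15 (0.59), and in NMuMG Ccn5, Serpinb9b and Serpinb9 had log2 fold changes of -0.53, -0.26 and -0.38. Other genes higher in E0771 were Renbp (0.74), Uap1l1 (0.54), Slc39a10 (0.51), Gdpd1 (0.46), Mroh1 (0.44), Sirt2 (0.34), Grina (0.33), Vat1 (0.25), Calr (0.21) and Washc5 (0.20). Negative differences were found for Itga3 (-0.43), Plxna3 (-0.48), Abcd4 (-0.38), Ccnl2 (-0.30), Tead1 (-0.29), Nktr (-0.27) and Flna (-0.25), and for mt-Co2 (-0.63) and Gm28661 (-0.70), of which the second is a nuclear copy of mitochondrial sequence. The remaining negative values belong to scarce genes or ones without a described function here: 3110039I08Rik (-0.98), Gm13387 (-0.91), 2700029L08Rik (-2.73), Podxl (-3.24) and Atg9b (-0.91). The fitted value of Podxl rests on obese counts at or near 0 and is no bound on its change.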

How the results depend on the processing

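Without the filter on low counts 626 genes were called (282 higher, 344 lower) and the interaction called 428, and DESeq2 called 422 for the interaction. DESeq2 called 479 genes for the obese secretome, of which 345 were shared with edgeR's 360. A fit of only the 6 control and obese libraries called 407, of which 304 were shared. Among those it did not call were Agt, Ftl1, Uap1l1, Gpnmb, Col6a3, Eps8l1, Prune2, Tenm4 and Tle2. Leaving out 1 replicate at a time gave 79 to 601 genes called, 50 to 300 higher and 29 to 301 lower, and 149 to 360 for the interaction. The lowest counts came without control replicate 1 (79), obese replicate 3 (89) and control replicate 2 (110), followed by obese replicate 1 (192). The cause was not tested. Some ferroptosis genes that were not called changed sign when 1 replicate was left out. Over these omissions Tfrc ranged from -0.006 to 0.1235, Aifm2 from -0.0148 to 0.0937, Slc7a11 from -0.0717 to 0.1594, Chac1 from -0.132 to 0.1151 and Ncoa4 from -0.0367 to 0.0759 (log2 fold change).

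With the replicate number as a replicate block 355 genes were called (158 higher, 197 lower), and 223 for the interaction. Of the 360 genes, 315 were shared, and Tenm4 and Tle2 were among those not called with the block. Same-numbered control and obese libraries had correlations of 0.11, 0.0466 and 0.0599 in their deviations from the group means, and each library correlated best with its own number, which is a hint from the data and not from the design. Depth limits the scarcest genes: Podxl had 1, 1 and 0 reads in the obese libraries, so its fitted values are no bound on its change.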

Other observations

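Among the 57 genes that stayed called whichever E0771 library was left out were several outside the lists, named here after their values were seen. Renbp, an enzyme of amino sugar metabolism, was at 83.2, 85.8 and 86.0 CPM in control and 113.0, 113.2 and 117.8 CPM in obese libraries, without overlap, and rose by 0.43 on the log2 scale (edgeR, adjusted p = 1.212e-05). Steap3, which reduces iron taken up with transferrin, rose by 0.31, and Lgals3, the lectin galectin-3 known to gather at damaged lysosomes, by 0.24. Sord, the sorbitol dehydrogenase, rose by 0.39, Ptgr1, which inactivates prostaglandins and leukotrienes, by 0.42, and the glutathione transferase gene Gstm2 by 0.37. Eci2 and Aldh9a1, enzymes of fatty acid and aldehyde oxidation, rose by 0.32 and 0.30.

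Lower were Itga3, an integrin subunit that binds laminin, at 95.0, 89.7 and 85.35 CPM in control and 73.3, 72.8 and 72.6 CPM in obese libraries (log2 fold change -0.31), the Mediator subunit gene Med12 (-0.31), the ligand gene Wnt7b (-0.22) and the selenoprotein gene Selenow (-0.31).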
